A study of Homo sapiens with 2 samples.

Results

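The first steps of B-cell receptor signalling depend on 10 genes that were chosen by name: the Src-family kinases BLK, LYN and FYN, the kinases SYK and BTK, the adaptors BLNK and PIK3AP1, and the effectors PLCG2, PRKCB and VAV1. They were found by Entrez number among 25702 gene features, and all 10 had at least 10 counts over both libraries. RNA came from REH cells (labelled REH-R), a line derived from human B-precursor acute lymphoblastic leukaemia, and was sequenced as 2 libraries. The PAX5 library was made from cells (PAX5 cells) with a tetracycline-regulated cassette of PAX5, an internal ribosome entry site and green fluorescent protein (GFP). The control library was made from cells (control cells) whose cassette held the ribosome entry site and GFP without PAX5. Doxycycline was given to both lines for 3 days at 1 µg/mL, after which cells positive for GFP were sorted. Whether each line was a clone or a pool is not given in the sources used here. Each group was 1 library, so differences could not be set against replicates and no p-values were computed.

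In a B cell, the Src-family kinases phosphorylate the signalling chains CD79A and CD79B of the receptor. SYK docks there and phosphorylates the scaffold BLNK, which brings BTK together with phospholipase C gamma 2, the product of PLCG2. The lipase makes the messengers that release calcium and activate protein kinase C beta, the product of PRKCB. PIK3AP1 encodes BCAP, which recruits phosphoinositide 3-kinase, and VAV1 is an exchange factor for small GTPases. Precursor B cells send a weaker signal through the same proteins from the pre-B-cell receptor. PAX5 commits lymphoid progenitors to the B lineage, and in mouse cells Blnk is a known PAX5-activated gene.

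The libraries held 11944765 counts (PAX5) and 10997864 counts (control). PAX5 itself, the check of the labels, had 8319 counts in PAX5 cells, against 2660 in control cells, a ratio of 2.91-fold. These counts add up endogenous and introduced PAX5 transcript. Of 10 markers of B-cell precursors, all were detected in both libraries, with a summed level of 8543 CPM (counts per 1000000 after scaling) in PAX5 cells, against 8279 CPM in control cells.

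The 3 downstream effectors and the adaptor PIK3AP1 had ratios above 1, and the 3 Src-family kinases, BTK and BLNK had ratios below 1. The highest ratio was that of PRKCB, 50.1% higher in the PAX5 library, and the lowest was that of BLK, at 0.689-fold. None of the 10 members passed the rule of size, a 95% counting interval lying wholly at or beyond 2-fold. Over all 13532 features with at least 10 counts, 1.34% passed it as higher and 0.0517% as lower. The counting interval is an exact interval for the ratio of 2 counts; it reflects the depth of sequencing alone, and says how far a pair of libraries differ and nothing of how cultures vary.

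Members with an interval off 0 on the log2 scale numbered 3 above and 5 below. Over all features the shares were 18.7% above and 16.8% below. Abundant genes have narrow intervals, and among the 5339 features with at least 1000 counts the shares were 28.7% above and 25% below. Of the 8 members with at least 1000 counts, 3 were above and 3 below. An interval off 0 was therefore common in these libraries, and the number above 0 is near that background. The 5 of 10 below 0 are a larger share than 16.8% or 25%, while the 8 abundant members were evenly divided. Whether the members differ from the background was not tested. The median log2 ratio of the 10 members was -0.12 and their mean -0.03. The median over all features with at least 10 counts was -0.01.

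**Figure D1:**
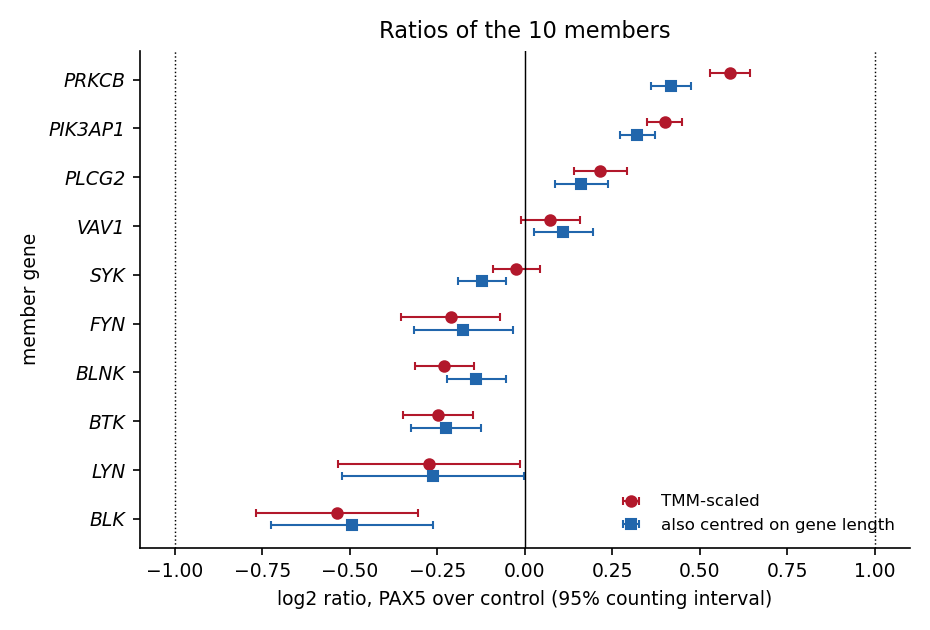
Log2 ratios of PAX5 over control for the 10 members, in order of their ratio, with bars for the 95% counting interval. Red circles are scaled by TMM and blue squares are also centred on the median of features of like length. PRKCB is at the top at 0.59 and BLK at the bottom at -0.54, and no interval reaches the dotted lines at 2-fold.

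The Src-family kinases start the signal, and all 3 had intervals below 0. BLK, a kinase largely restricted to B cells and their precursors, had 270 counts (22.7 CPM) in PAX5 cells, against 364 counts (32.9 CPM) in control cells. Its log2 ratio was -0.54, with a counting interval of -0.77 to -0.31. Among features with at least 100 counts, 2.35% had a lower ratio. LYN, which also phosphorylates inhibitory receptors, had 235 counts (19.8 CPM) in PAX5 cells, against 264 counts (23.9 CPM) in control cells. Its log2 ratio of -0.27 had an interval of -0.53 to -0.01, which only just left 0. FYN, which is also used by T cells, had 784 counts (65.9 CPM) in PAX5 cells, against 844 counts (76.4 CPM) in control cells, with a log2 ratio of -0.21 (-0.35 to -0.07).

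Ratios between members in the same library do not depend on how the libraries are scaled. The FYN to BLK count ratio was 2.90 in PAX5 cells, against 2.32 in control cells, a ratio of ratios of 1.25 with an exact conditional 95% interval of 1.04 to 1.51. LYN and BLK could not be separated in this way (1.20, interval 0.941 to 1.53), nor could FYN and LYN (1.04, interval 0.849 to 1.28). Of the summed counts of the 3 kinases, BLK held 20.9% in the PAX5 library (exact Clopper-Pearson 95% interval 18.8 to 23.3) and 24.7% in the control library (22.5 to 27.0). FYN held most of the counts of the 3 genes, with 60.8% in PAX5 cells, against 57.3% in the control library. Per base of gene length the FYN share was 60.4% in PAX5 cells, against 56.7% in control cells.

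SYK and BTK carry the signal to the adaptors. SYK had 3634 counts (305.6 CPM) in PAX5 cells, against 3434 counts (310.8 CPM) in control cells. Its log2 ratio was -0.02, with an interval of -0.09 to 0.04, which is a ratio between 0.938 and 1.03. BTK, the kinase lost in X-linked agammaglobulinaemia, had 1556 counts (130.9 CPM) in PAX5 cells, against 1717 counts (155.4 CPM) in control cells. The BTK log2 ratio was -0.25 (-0.35 to -0.15), about as low as those of FYN and BLNK.

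The adaptors had ratios on opposite sides of 1. BLNK, the scaffold for BTK and PLCG2, had 2181 counts (183.4 CPM) in PAX5 cells, against 2378 counts (215.2 CPM) in control cells. The BLNK log2 ratio was -0.23 (-0.32 to -0.15), so this gene, known as PAX5-activated in mouse, was not higher in the PAX5 library. Control cells already held PAX5 transcript (2660 counts), so PAX5 present was not set against PAX5 absent here. BLNK overlaps ZNF518A in the RefSeq annotation, and since the strand setting is unknown their reads may be mixed where they overlap. ZNF518A had 1554 counts in PAX5 cells, against 1277 in control cells, a log2 ratio of 0.18 (0.07 to 0.29). PIK3AP1 was the most counted member, with 7877 counts (662.5 CPM) in PAX5 cells, against 5550 counts (502.3 CPM) in control cells. The PIK3AP1 ratio was 1.32-fold (1.27 to 1.37), a log2 ratio of 0.40.

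The effectors had ratios above 1, with an interval that held 0 on the log2 scale for VAV1. PRKCB had 6590 counts (554.3 CPM) in PAX5 cells, against 4080 counts (369.3 CPM) in control cells. Its level was 50.1% higher, with a ratio interval of 1.44 to 1.56 and a log2 ratio of 0.59 (0.53 to 0.64), and 96.2% of features with at least 100 counts had a lower ratio. PLCG2 had 3201 counts (269.2 CPM) in PAX5 cells, against 2561 counts (231.8 CPM) in control cells. The PLCG2 log2 ratio of 0.22 (0.14 to 0.29) lay between those of PIK3AP1 and VAV1. VAV1 had 2425 counts (203.96 CPM) in PAX5 cells, against 2143 counts (193.96 CPM) in control cells. The VAV1 log2 ratio was 0.07 (-0.01 to 0.16), an interval that held 0.

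PRKCB was also set against each of the other 9 members in ratios free of scaling. Since it had the highest ratio, each contrast lay above 1 by that choice. The sizes restate the member ratios given above, and their intervals do not allow for the choice. The contrasts were not centred on gene length. The smallest such contrast was with PIK3AP1, where the ratio of ratios was 1.14 (1.08 to 1.20). The contrast with PLCG2, whose product makes the activator of protein kinase C, was 1.29 (1.21 to 1.38), and that with BTK was 1.78 (1.65 to 1.93). The largest was with BLK: there were 24.4 PRKCB counts for each BLK count in PAX5 cells, against 11.2 in control cells, a ratio of ratios of 2.18 (1.85 to 2.57).

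Levels of different genes were compared per length, as RPKM (counts per 1000 bases of the deposited gene length and 1000000 scaled counts). In the PAX5 library the order from high to low was PIK3AP1, BLNK, VAV1, PRKCB, PLCG2, SYK, BTK, FYN, BLK and LYN. In the control library it was BLNK, PIK3AP1, VAV1, BTK, SYK, PLCG2, PRKCB, FYN, BLK and LYN. PIK3AP1 had 137.7 RPKM in PAX5 cells, against 104.4 RPKM in control cells. BLNK had 100.6 RPKM in PAX5 cells, against 118.1 RPKM in control cells, so the adaptors at the top stood in the opposite order. PRKCB was at place 4 of 10 in the PAX5 library with 69.2 RPKM and at place 7 in the control library with 46.1 RPKM. BTK was at place 7 in the PAX5 library with 50.1 RPKM and at place 4 in the control library with 59.5 RPKM.

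One pair of neighbours in each library could not be ordered beyond counting error. In the PAX5 library the level of VAV1 (70.6 RPKM) was 1.02 times that of PRKCB, with an exact 95% counting interval of 0.974 to 1.07. In the control library the level of BTK was 1.02 times that of SYK (58.5 RPKM), with an interval of 0.959 to 1.08. The intervals of the other neighbouring pairs lay above 1, the closest being SYK over PLCG2 (54.7 RPKM) in the control library, at 1.07 (1.02 to 1.13). The Src-family kinases were the 3 lowest members in both libraries. FYN had 23.1 RPKM in PAX5 cells, against 26.8 RPKM in control cells. BLK had 8.77 RPKM in PAX5 cells, against 12.7 RPKM in control cells. LYN, the lowest member, had 6.39 RPKM in PAX5 cells, against 7.73 RPKM in control cells.

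**Figure D2:**
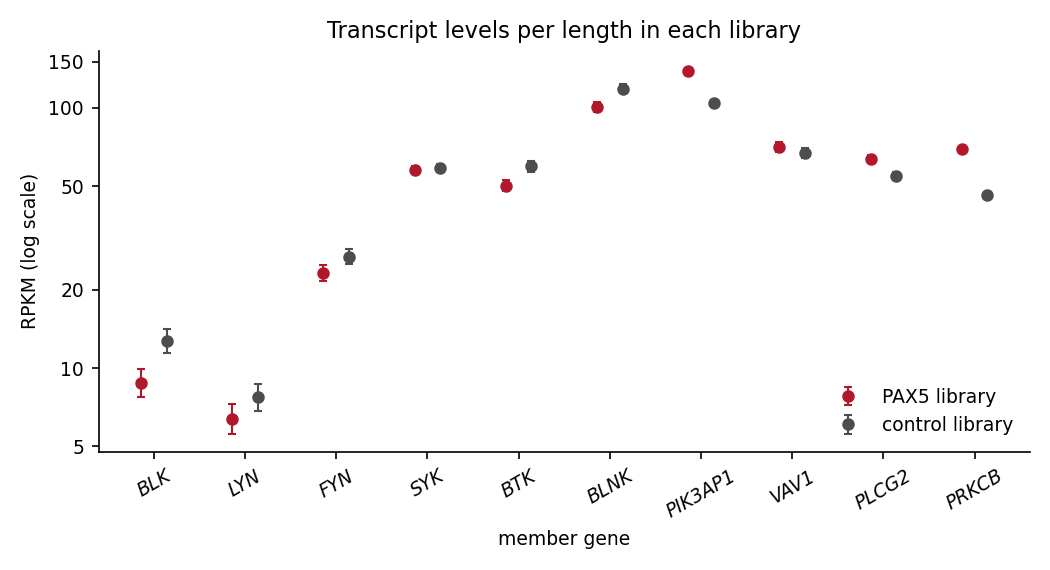
Transcript level of each member in RPKM on a log axis, with the PAX5 library in red to the left and the control library in grey to the right, 1 library each, and bars for the exact 95% counting interval. The Src-family kinases are lowest, from 6.39 to 26.8 RPKM, and PIK3AP1 and BLNK are highest.

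Gene length moved with the ratios. Across 10667 features with at least 100 counts, Spearman's rho between the log2 ratio and deposited length was 0.45; genes are not independent replicates, and all share the same 2 libraries. Among the 10 members rho was 0.75. The longest member, PRKCB (8014 bases), had the highest ratio, while BLNK (1823 bases), BLK (2590 bases) and BTK (2611 bases) were the shortest. The ratios were therefore also centred on the median of features of like length, in 20 bins. That median was 0.17 on the log2 scale for the bin of PRKCB and -0.09 for the bin of BLNK.

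After centring, PRKCB had a log2 ratio of 0.42 (0.36 to 0.47), PIK3AP1 of 0.32 (0.27 to 0.37) and PLCG2 of 0.16 (0.09 to 0.24). BLK had -0.49 (-0.73 to -0.26), BTK had -0.22 (-0.32 to -0.12) and BLNK had -0.14 (-0.22 to -0.05). The long gene that overlaps BLNK, ZNF518A, had -0.06. Intervals now lay above 0 for 4 members and below 0 for 6, because VAV1 (0.11, interval 0.02 to 0.19) and SYK (-0.12, interval -0.19 to -0.06) left 0 on opposite sides. Over all features with at least 10 counts, 16.6% lay above and 13.8% below after centring. Among the 5339 features with at least 1000 counts, 1180 lay above and 1156 below. Of the 8 members with at least 1000 counts, 4 lay above and 4 below. The members' own rank correlation with length was still 0.71, against 0.00 over the features with at least 100 counts. The part of other technical properties of the genes was not tested.

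**Figure D3:**
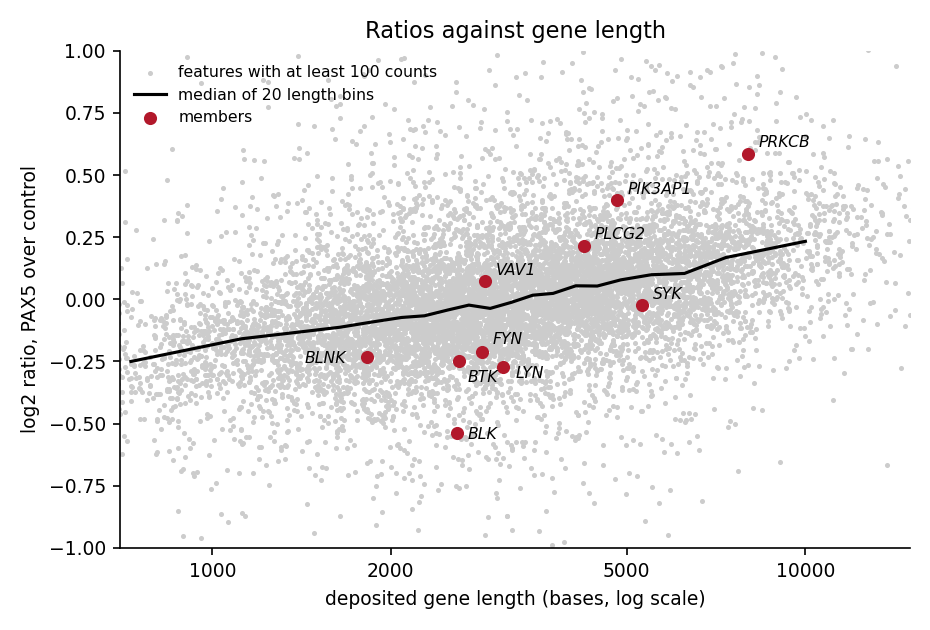
Log2 ratio of PAX5 over control against deposited gene length on a log axis, for features with a gene symbol and at least 100 counts (grey), the median of each of 20 length bins (black line) and the members (red). The members PRKCB, PIK3AP1, PLCG2 and VAV1 lie above the line and the other 6 below it; 426 of 10527 grey points lie outside the axes.

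Promoter sequences are shown for the member with the highest ratio, PRKCB, and for BLNK and BTK, whose ratios lay below 1. Each is the 250 bases before a RefSeq start in GRCh38.p14, 5′ to 3′ on the strand of the gene. BTK has another start, and its window is not shown. Capitals mark letters of 4 motifs searched on both strands: GCGTGAC from the binding site of PAX5, the octamer ATGCAAAT bound by OCT factors, GAGGAAGT bound by the ETS factors PU.1 and SPIB, and the E-box CAGCTG.
PRKCB, chr16:23835733-23835982, plus strand: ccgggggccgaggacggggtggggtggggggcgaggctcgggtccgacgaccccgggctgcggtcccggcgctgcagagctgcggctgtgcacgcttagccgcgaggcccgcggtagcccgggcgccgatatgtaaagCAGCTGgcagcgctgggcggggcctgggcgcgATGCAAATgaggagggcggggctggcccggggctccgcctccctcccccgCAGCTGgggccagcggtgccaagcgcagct
BLNK, chr10:96271570-96271819, minus strand: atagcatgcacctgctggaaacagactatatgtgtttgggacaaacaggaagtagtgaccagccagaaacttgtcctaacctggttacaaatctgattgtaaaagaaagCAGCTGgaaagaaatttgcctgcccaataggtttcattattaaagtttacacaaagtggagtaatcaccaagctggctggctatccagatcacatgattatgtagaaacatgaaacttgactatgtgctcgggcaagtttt
BTK, chrX:101390797-101391046, minus strand: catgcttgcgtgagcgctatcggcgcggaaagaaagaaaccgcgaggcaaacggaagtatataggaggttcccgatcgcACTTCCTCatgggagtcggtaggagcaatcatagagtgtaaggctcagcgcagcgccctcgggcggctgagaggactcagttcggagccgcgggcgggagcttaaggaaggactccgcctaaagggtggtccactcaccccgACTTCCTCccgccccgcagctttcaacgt

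The table of promoters held 14 such windows for 8 of the 10 members. BLK and LYN, the members with the lowest ratios, had no window and were not searched. None of the 14 windows held GCGTGAC, which 2.20% of all 35116 windows held. For letters that rare, finding none in 14 windows says little. The octamer was found in PRKCB alone among these members, starting 80 bases before the transcript start, and 1.63% of all windows held it. PRKCB also held the E-box at 112 and at 30 bases before the start; that motif was found in windows of BLNK, PLCG2 and PRKCB and in 13.99% of all windows. The ETS letters were found in windows of BTK, SYK and VAV1 and in 2.17% of all windows. The printed BTK window held them at 171 and at 29 bases before its start, both on the opposite strand. The other BTK window held none, and SYK held them in 1 of its windows and not in the others. The log2 ratios were 0.59 for PRKCB, the octamer member, and -0.25 (BTK), -0.02 (SYK) and 0.07 (VAV1) for the ETS members. A link between motifs and ratios was not tested. A match is a run of letters and not a measured binding site.

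Around the members, 88 other genes of the pathway were read in 8 lists. Of the 83 with at least 10 counts, 1 passed the rule as higher and 0 as lower, against 1.34% and 0.0517% of all features. Intervals lay above 0 for 31 and below 0 for 13, and the median log2 ratio was 0.07, beside 18.7% above and 16.8% below over all features. Features with at least 1000 counts had larger shares, 28.7% above and 25% below. Abundant list genes also have narrow intervals, so the shares over all features are too low a background for them. After centring on length, intervals lay above 0 for 24 and below 0 for 14, with a median of 0.02, beside 16.6% above and 13.8% below. Of the 5339 features with at least 1000 counts, 1180 then lay above and 1156 below. These shares are also the background for the counts of each list below, where an interval off 0 is common in abundant genes. The median length of the list genes was 3712 bases, against 2872 over all features with at least 10 counts. The gene past the rule was PRKCZ, an atypical protein kinase C that needs neither calcium nor diacylglycerol. PRKCZ had 104 counts in PAX5 cells, against 1 in control cells, a ratio of 96.6-fold with a counting interval of 17.0 to 3854. At 8.75 CPM in the PAX5 library it remained far below PRKCB, with 3.14 RPKM against 69.2 RPKM.

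The closest relatives of the effectors were read for comparison, outside the naming rule. VAV2 had 1168 counts in PAX5 cells, against 784 in control cells, a log2 ratio of 0.47 (0.34 to 0.60). VAV3 had 2574 counts in PAX5 cells, against 1913 in control cells, with a log2 ratio at 0.32 (0.24 to 0.41). Both ratios were above that of VAV1. PLCG1 had a log2 ratio of 0.16 (0.07 to 0.25), and 0.06 (-0.03 to 0.15) after centring. PRKCA, the classical isoform nearest to PRKCB, had 0.01 (-0.20 to 0.21), and -0.23 (-0.43 to -0.02) after centring. The list of related effectors had a median of 0.08 over 10 genes, with 5 intervals above 0 and 0 below. After centring its median was -0.01, with 4 above and 2 below.

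Among related tyrosine kinases, 7 of 10 had at least 10 counts, with 2 intervals above 0, 2 below and a median of 0.17; after centring, 0 lay above and 2 below, with a median of 0.18. TEC, the namesake of the family of BTK, had 113 counts in PAX5 cells, against 145 in control cells (log2 ratio -0.47). YES1, another Src-family kinase, had 526 counts in PAX5 cells, against 408 in control cells (0.26), and its interval held 0 after centring (0.18, -0.01 to 0.37).

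The receptor chains had 2 of 6 intervals above 0, 1 below and a median of 0.20. After centring, 5 lay above and 0 below, with a median of 0.36. Of those 5, VPREB1 rested on 17 counts in PAX5 cells, against 7 in control cells (centred 1.42, interval 0.08 to 2.94). IGHM, the mu heavy chain, had 1877 counts in PAX5 cells, against 1076 in control cells (log2 ratio 0.70), and CD79B had 4723 in PAX5 cells, against 3278 in control cells (0.42). IGLL1, part of the surrogate light chain, had 5465 counts in PAX5 cells, against 6063 in control cells (-0.26), and its interval held 0 after centring (-0.01, -0.06 to 0.05). The median of BLK, LYN and FYN, the kinases that act on these chains, was -0.27, and -0.26 after centring.

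The other adaptors had 4 of 11 intervals above 0 and 2 below, with a median of -0.06 and a mean of 0.08, which differ in sign; after centring, 3 lay above and 2 below, with a median of -0.07. SH3BP2, an adaptor that binds SYK and PLCG2, had 181 counts in PAX5 cells, against 63 in control cells, 2.67-fold with an interval of 1.99 to 3.62, just short of the rule. GAB1 had a log2 ratio of 0.46 and GAB2 of 0.22. In the phosphoinositide 3-kinase branch, 5 of 13 intervals lay above 0 and 1 below, with a median of 0.07; after centring, 4 lay above and 3 below, with a median of -0.02. FOXO1 had a log2 ratio of 0.49 and AKT1 of -0.23.

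Downstream of PRKCB, the NF-kB branch had 1 of 7 intervals above 0 and 2 below, with a median of 0.08; after centring, 2 lay above and 2 below, with a median of 0.06. IKBKG had a log2 ratio of -0.68 and IKBKB of -0.22. Downstream of PLCG2, the calcium and Ras branch had 7 of 15 intervals above 0 and 2 below, with a median of 0.13; after centring, 3 lay above and 0 below, with a median of -0.04. The inositol trisphosphate receptors had the bounds farthest from 0 there, with log2 ratios of 0.59 for ITPR3, 0.43 for ITPR1 and 0.36 for ITPR2. All 3 are long genes, of 9029 to 12568 bases, and of these only ITPR3 had an interval above 0 after centring.

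Negative regulators had 5 of 14 intervals above 0 and 3 below, with a median of 0.04 and a mean of -0.29, which differ in sign; after centring, 3 lay above and 3 below, with a median of 0.02. The lowest ratios of that list rest on 10 and 14 summed counts (DOK2 and SLA). PAG1, which anchors the kinase CSK that restrains Src-family kinases, had 7995 counts in PAX5 cells, against 5319 in control cells (log2 ratio 0.48, and 0.25 after centring). The phosphatase PTPN22 had 74 counts in PAX5 cells, against 124 in control cells (-0.85), and the ubiquitin ligase CBL had 0.26, or 0.03 after centring.

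**Figure D4:**
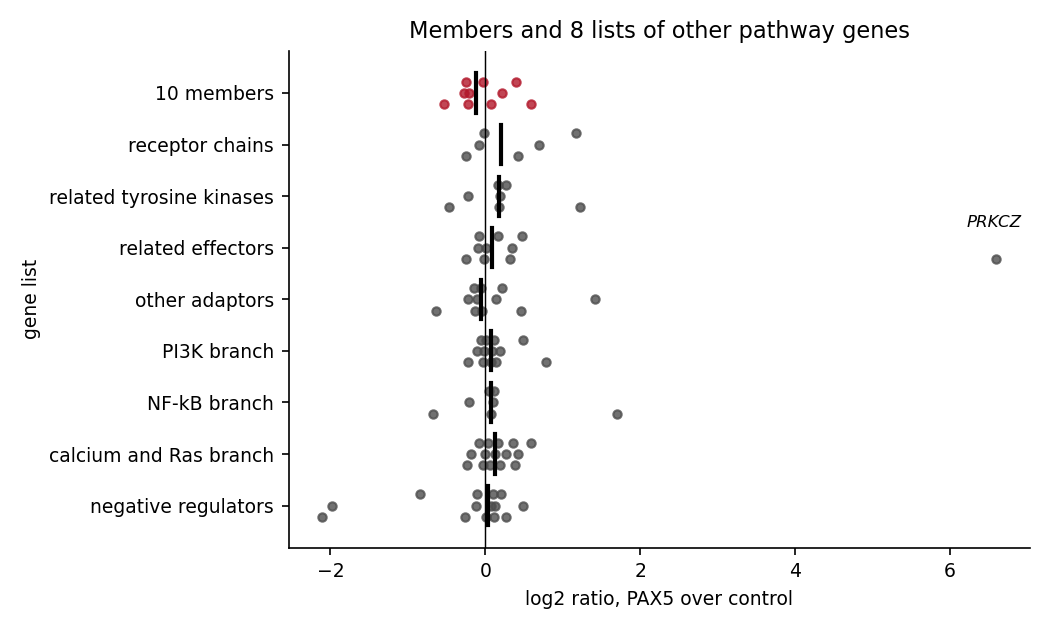
Log2 ratios of PAX5 over control for the 10 members (red) and for genes with at least 10 counts in 8 lists of other pathway genes (grey), with a black bar at each list's median. The members' median is -0.12, and PRKCZ, the point farthest to the right at 6.59, rests on 1 count in the control library.

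Several members are also used by myeloid, T or natural killer cells, so markers of those cells were read beside them. Of 6 T-cell markers, 6 were at 0 in PAX5 cells, and 5 in control cells, where CD3E had 1 count. Natural killer markers had 4 of 5 genes at 0 in each library (KLRD1, GNLY, NCAM1 and KLRF1) and summed to 2.27 CPM in PAX5 cells, against 4.16 CPM in control cells. Erythroid markers summed to 0.252 CPM in PAX5 cells, against 0.362 CPM in control cells, with HBA1 and HBB at 0 in both. Myeloid markers summed to 66.6 CPM in PAX5 cells, against 132.2 CPM in control cells, nearly all from MPO and ITGAM, while ELANE was at 0 in both and CD14 and LYZ had at most 3 counts. LYN, SYK and BTK are expressed in myeloid cells as well, and the part of that difference in their ratios was not tested. In RNA from a sorted bulk of cells, fewer expressing cells and less RNA per cell cannot be told apart.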

How the data were processed

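The labels' protocols name a QIAGEN RNeasy Plus kit for RNA and a NEBNext Ultra RNA kit for the libraries. The deposited values are raw counts of reads per Entrez gene, and per the submitters' processing notes the authors used featureCounts with build hg19 (GRCh37). Not given in the sources used here are the aligner, tool versions, strandedness and how multi-mapping reads were handled. The table of both libraries and the files of single libraries held the same 51404 values. Groups came from the genotype labels.

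Symbols were matched by Entrez number to RefSeq on GRCh38.p14, for 23696 of 25702 features. TMM scaling (edgeR 4.0.16, R 4.3.3) used features with at least 10 counts and gave factors of 0.9954 (PAX5) and 1.0046 (control). Ratios are PAX5 over control with 95% intervals by the exact Clopper-Pearson method given both counts of a gene (scipy 1.17.1). They cover counting error only, since each group was 1 library. PCR copies of a molecule count as separate reads, so the intervals may be too narrow even for that error. Intervals were as wide as 0.26 on either side (log2) at 500 summed counts, 0.13 at 2000 and 0.057 at 10000. Without replicates, neither edgeR nor DESeq2 1.42.0 could test a gene, so a rule of size was used: an interval at or beyond 2-fold and at least 10 counts.

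The members, lists and rules were chosen with earlier results of these data known. All members were named, and of each list the genes past the rule or, with none, the 3 with the bound farthest from 0; some of these genes are not reported here. Calculations were tested on simulated data. Alternatives were other scalings, centring on length in 20 bins, other thresholds and count minimums, the mean, and an assumed biological variation.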

Additional observations from a re-analysis of the deposited data

How the results depend on the processing

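The counts of 0 members past the rule of size, in either direction, held under all alternatives run: scaling by total counts, DESeq2 size factors or upper-quartile factors, centring on length, no count minimum or one of 50, bounds at 1.5-fold or 4-fold, a point ratio of 2-fold, and assumed biological variation. Some of these alternatives could not have raised the counts. A bound at 4-fold is stricter, assumed variation only widens intervals, and no member had fewer than 499 summed counts. Intervals off 0 rest on counting error alone. With an assumed biological coefficient of variation of 0.1, the members above 0 numbered 1 (PRKCB) and those below 0 numbered 1 (BLK), and with 0.2 they numbered 0 and 0. The median log2 ratio of -0.12 was -0.0251 when the mean replaced it. With DESeq2 size factors, the VAV1 interval also lay above 0. Centring on length moved SYK to -0.12, BLNK to -0.14, PIK3AP1 to 0.32 and PRKCB to 0.42, outside their counting intervals; the other 6 members moved within theirs. No paired analysis was possible because each group had 1 library. LYN and BLK, with 499 and 634 summed counts, had the least depth.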

Other observations

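Per length, some pathway genes outside the 10 members matched or exceeded them. UBASH3B, a phosphatase that acts on SYK, had 13102 counts (159.6 RPKM) in PAX5 cells, against 13147 counts (172.4 RPKM) in control cells, above every member in both. The adaptor LAT2 had 138.9 RPKM in PAX5 cells, against 144.6 RPKM in control cells, on a level with PIK3AP1 in the PAX5 library and above it in the control library. These genes were singled out after their values were seen.

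BANK1, an adaptor of B cells, had 8 counts in PAX5 cells, against 8 in control cells, and DAPP1 had 2 in PAX5 cells, against 1 in control cells. Of the genes between PRKCB and NF-kB, BCL10 had 11.7 RPKM in PAX5 cells, against 10.9 RPKM in control cells, and MALT1 had 10.6 RPKM in PAX5 cells, against 10.2 RPKM in control cells.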
